A study of Rattus norvegicus with 10 samples.

Results

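Neuropeptide and granin genes were followed in the hippocampus of rats of an Alzheimer's disease model that ate, or did not eat, the histone deacetylase inhibitor RG2833. The set held 10 genes chosen by name, of the 17168 gene symbols in the deposited tables. They were the opioid precursors Penk and Pdyn, the tachykinin precursor Tac1, the precursors Adcyap1, Cartpt, Nts and Crh, and the granin-family genes Scg2, Vgf and Chgb. All 10 had counts in every animal and passed the filter on low counts. RNA from the left hippocampus was sequenced from 10 female TgF-344AD transgenic rats, 5 per group, at 11 months of age. The strain models Alzheimer's disease, and since both groups were transgenic and no wild-type animals were analysed here, the comparison is of drug within the model. The untreated group ate plain chow. The RG2833 group ate chow with 750 mg of RG2833 per kg from 5 months of age, for 6 months, and RG2833 inhibits the deacetylases HDAC1 and HDAC3.

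Neuropeptides are made as long precursor proteins that enter dense-core vesicles, are cut by prohormone convertases into short peptides, and leave the neuron during sustained firing to act on G protein-coupled receptors. Granins are acidic proteins that help to form these vesicles and are themselves cut into peptides. In the hippocampus, granule cells of the dentate gyrus and their mossy fibres hold dynorphins (from Pdyn) and enkephalins (from Penk), and several other peptides mark interneurons. Many of these genes are textbook targets of cAMP and neuronal activity through the cAMP response element, CRE, the binding site of the factor CREB.

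Promoter sequences were looked up to show which members carry this element near their start. RefSeq promoters (build GRCr8) were at hand for 8 of the 10 members, and Penk and Crh had no entry. The 250 bases before each annotated start were searched on both strands for the palindromic CRE (TGACGTCA), for the CRE core alone (TGACG, which also lies within the palindrome), for the AP-1 site (TGANTCA) and for a TATA box (TATAAA). The palindrome lay in Cartpt, Scg2 and Vgf, starting 142, 123 and 90 bases before the start, and in 1.59% of 33469 RefSeq promoters of this length. A core outside the palindrome lay in Tac1 (206 bases before the start) and Nts (171 bases before). The core was in 5 of the 8 members and in 18.2% of all promoters. The AP-1 site was in Nts (212 bases before the start) and in 6.34% of all promoters. A TATA box was in Pdyn, Adcyap1 and Vgf and in 12.9% of all promoters. A match describes these letters only. Shown 5′ to 3′ along the gene, with the matches in capitals, are the 3 promoters with the palindrome, then those of Nts, Tac1 and Chgb, the 3 members whose values the comparison turned on. Coordinates are of GRCr8, whereas the submitters' processing notes name rn6 for the counts.
Scg2, chr9:88256867-88257116, reverse strand: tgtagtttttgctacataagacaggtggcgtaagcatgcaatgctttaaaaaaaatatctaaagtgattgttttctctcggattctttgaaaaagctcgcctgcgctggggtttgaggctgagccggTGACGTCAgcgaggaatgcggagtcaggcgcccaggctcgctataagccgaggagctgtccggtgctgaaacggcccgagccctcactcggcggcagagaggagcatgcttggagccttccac
Vgf, chr12:25277021-25277270, reverse strand: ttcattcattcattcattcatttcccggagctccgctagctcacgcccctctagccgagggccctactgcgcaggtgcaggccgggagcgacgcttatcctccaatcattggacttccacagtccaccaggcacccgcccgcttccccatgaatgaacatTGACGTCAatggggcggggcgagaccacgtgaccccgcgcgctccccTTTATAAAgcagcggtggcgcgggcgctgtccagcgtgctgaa
Cartpt, chr2:32991236-32991485, reverse strand: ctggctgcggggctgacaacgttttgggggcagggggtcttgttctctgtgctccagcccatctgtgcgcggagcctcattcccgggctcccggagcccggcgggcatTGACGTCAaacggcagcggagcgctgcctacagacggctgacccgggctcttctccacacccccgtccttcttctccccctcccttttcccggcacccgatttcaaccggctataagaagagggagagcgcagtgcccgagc
Nts, chr7:39460889-39461138, reverse strand: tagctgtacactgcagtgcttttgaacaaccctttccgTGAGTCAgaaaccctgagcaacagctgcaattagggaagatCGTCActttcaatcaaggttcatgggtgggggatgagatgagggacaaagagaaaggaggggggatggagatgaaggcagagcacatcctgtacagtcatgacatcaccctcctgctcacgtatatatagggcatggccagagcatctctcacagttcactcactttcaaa
Tac1, chr4:36645333-36645582, forward strand: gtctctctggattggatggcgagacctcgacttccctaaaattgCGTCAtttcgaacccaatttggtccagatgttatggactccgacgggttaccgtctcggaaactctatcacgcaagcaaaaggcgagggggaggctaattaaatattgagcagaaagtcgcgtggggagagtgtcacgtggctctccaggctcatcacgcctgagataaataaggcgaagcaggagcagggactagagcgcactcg
Chgb, chr3:140496462-140496711, forward strand: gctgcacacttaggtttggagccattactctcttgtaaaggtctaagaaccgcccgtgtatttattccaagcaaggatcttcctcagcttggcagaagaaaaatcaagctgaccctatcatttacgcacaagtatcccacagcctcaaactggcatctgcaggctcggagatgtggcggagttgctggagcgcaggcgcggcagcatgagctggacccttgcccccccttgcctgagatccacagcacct

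Total estimated counts ran from 8764266 to 11311673 per library, and 3 counts, used as a floor, equalled 0.268 to 0.343 CPM (counts scaled to library size with TMM, the unit of every level below). The 4 ribosomal RNA loci took 2.70% to 5.36% in untreated and 1.13% to 1.96% of counts in RG2833 libraries. The summed level of 7 excitatory neuron markers was 4875 to 6747 CPM in untreated and 6873 to 7523 CPM in RG2833 libraries. Neither measure overlapped between the groups, so the treatment cannot be told apart from the ribosomal RNA share, and both were tried as covariates. Untreated replicate 1 stood apart with 2481 CPM of choroid plexus markers, against at most 48.0 CPM in the other 9 libraries. The untreated animals differed more from each other than the RG2833 animals did, with a chi-square per degree of freedom of 16.3 to 36.3 between untreated and 4.60 to 10.2 between RG2833 pairs.

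No member passed the test. By edgeR's quasi-likelihood test, with p-values adjusted by Benjamini-Hochberg over 11791 genes and a threshold of 0.05, 0 of the 10 members were called, where 5.08% of all tested genes were. At an unadjusted p under 0.05, 2 of the 10 passed, Tac1 (lower mean with RG2833) and Chgb (higher mean), against 24.5% of all genes. The groups overlapped for all 10 members, whereas 7.27% of all genes had groups that did not. The median log2 fold change of the members was 0.13, with 6 above 0 and 4 below, and that of all genes was -0.0035. DESeq2's Wald test called 2 members, again Tac1 and Chgb, beside 11% of all genes, and limma-voom and limma trend called 0.

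**Figure D1:**
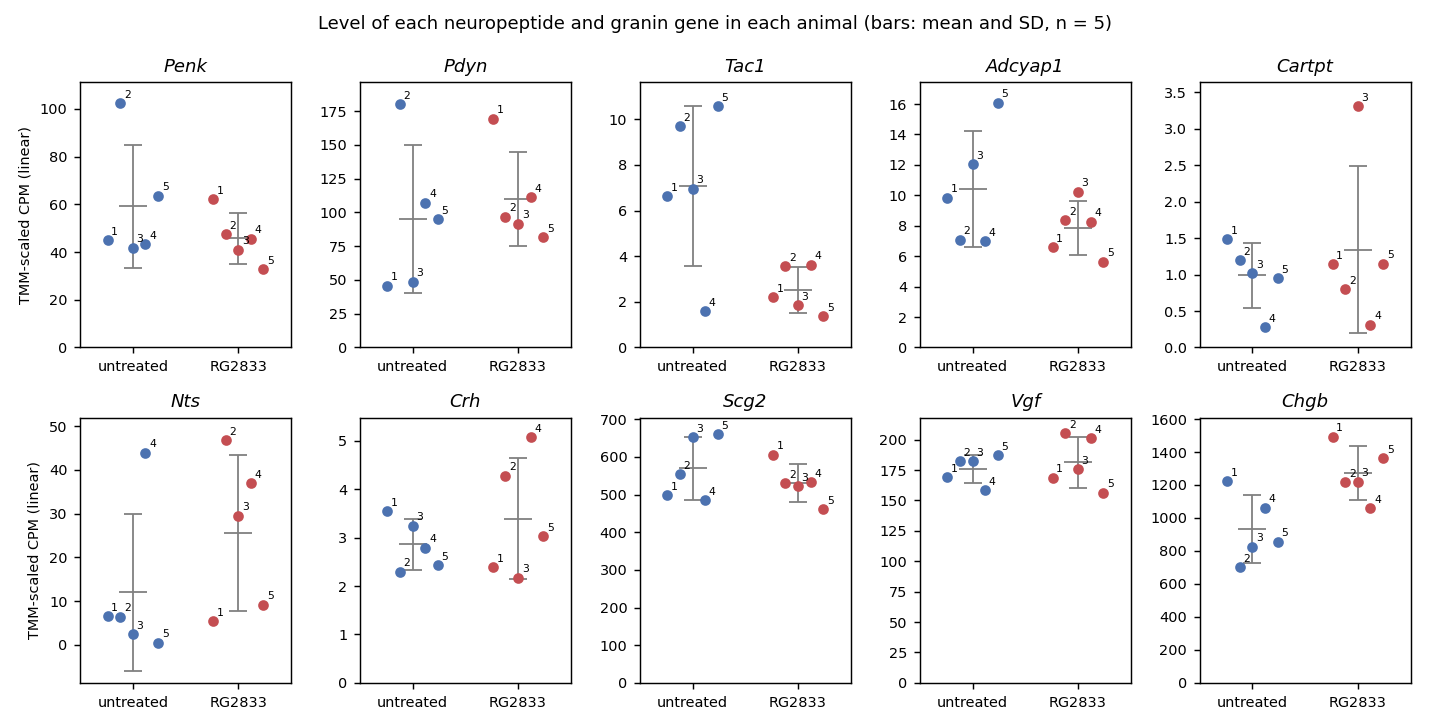
Level (TMM-scaled CPM, linear axes) of each of the 10 genes in each animal, with replicate numbers beside the points and the mean and SD of each group of 5 as bars. The groups overlap in every panel, and untreated replicate 4 lies among the RG2833 animals for Tac1 and Nts.

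**Figure D2:**
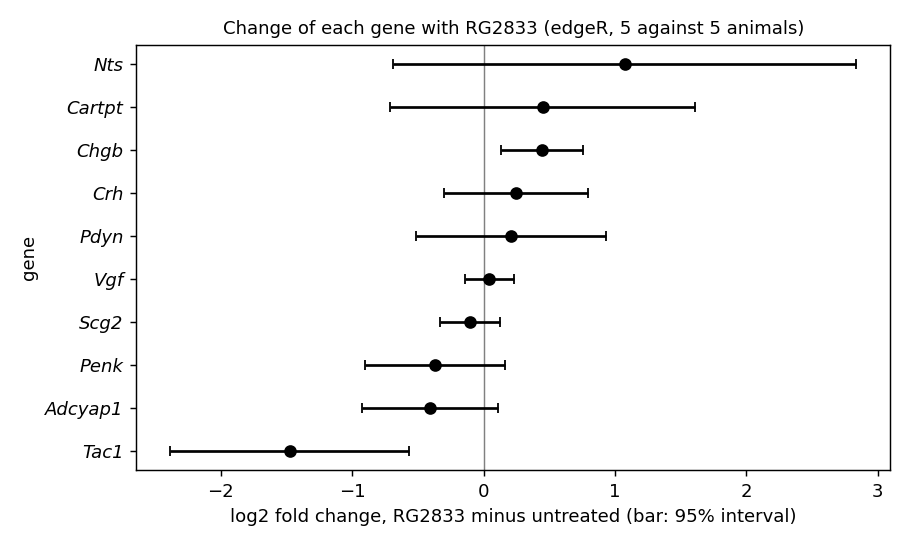
Log2 fold change of each gene (horizontal axis, RG2833 minus untreated, edgeR) with its 95% interval, ordered by size. The intervals of Tac1 (-2.38 to -0.57) and Chgb (0.13 to 0.76) leave out 0 before adjustment, and that of Nts (-0.69 to 2.84) is the widest.

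Tac1, the precursor of substance P and neurokinin A, had the smallest p of the set. Its level was 6.63, 9.69, 6.95, 1.58 and 10.6 CPM in untreated replicates 1 to 5, and 2.19, 3.57, 1.86, 3.62 and 1.36 CPM in RG2833 replicates 1 to 5. Each RG2833 value lay below 4 of the 5 untreated values, and only untreated replicate 4 lay inside the RG2833 range. The means were 7.09 ± 3.52 and 2.52 ± 1.02 CPM (SD, n = 5). The log2 fold change was -1.47 ± 0.42 (SE), with an adjusted p of 0.0617 by edgeR. Without untreated replicate 4 it was -1.73 ± 0.27 and passed (adjusted p by edgeR = 0.00277), in a fit that called 13.1% of all genes. With ribosomal RNA share as covariate the value was -0.49, and with the excitatory neuron markers -0.02 (adjusted p by edgeR = 0.9999 in both). Tac1 rested on 13 to 100 counts per library.

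Chgb, the granin chromogranin B, had the next smallest p. Its level was 1222, 701, 825, 1062 and 855 CPM in untreated replicates 1 to 5, and 1492, 1218, 1219, 1059 and 1361 CPM in RG2833 replicates 1 to 5. Untreated replicates 1 and 4 lay inside the RG2833 range and the other 3 below it. The means were 933 ± 207 and 1270 ± 164 CPM (SD, n = 5). The log2 fold change was 0.44 ± 0.14 (SE), with an adjusted p of 0.0872 by edgeR. Leaving out untreated replicate 4 brought it to the threshold (0.50 ± 0.15, adjusted p by edgeR = 0.0497), and none of the other 9 leave-one-out fits did. With ribosomal RNA share as covariate the log2 fold change was 0.10, and with the excitatory neuron markers 0.39.

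Scg2 and Vgf, the other granin-family genes of the set, did not follow Chgb. Scg2, secretogranin II, was 498, 554, 653, 485 and 661 CPM in untreated replicates 1 to 5 and 606, 530, 522, 533 and 461 CPM in RG2833 replicates 1 to 5. The 2 groups covered nearly the same range, with means of 570 ± 83.3 and 530 ± 51.3 CPM (SD, n = 5) and a log2 fold change of -0.10 (95% interval -0.33 to 0.13; adjusted p by edgeR = 0.578), which turned to 0.16 with ribosomal RNA share and to 0.011 with the excitatory neuron markers as covariate. Vgf, a nerve growth factor-inducible member of the family, was 169, 182, 182, 159 and 187 CPM in untreated replicates 1 to 5 and 169, 205, 176, 201 and 157 CPM in RG2833 replicates 1 to 5. Vgf varied least of the 10 genes, with 1.31-fold between its highest and lowest animal. Its log2 fold change was 0.05 (95% interval -0.14 to 0.23; adjusted p by edgeR = 0.788), and 0.22 and 0.13 with ribosomal RNA share and with the excitatory neuron markers as covariate. No test was made of the difference between Chgb and the other granins. Scg2 and Vgf are 2 of the 3 members with the palindromic CRE shown above.

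The opioid precursors varied widely between animals within each group. Penk, which encodes proenkephalin, was 45.0, 102, 41.8, 43.2 and 63.7 CPM in untreated replicates 1 to 5 and 62.2, 47.5, 40.9, 45.6 and 32.9 CPM in RG2833 replicates 1 to 5. Untreated replicate 2 stood highest, and 8 of the other 9 animals lay between 40.9 and 63.7 CPM. The log2 fold change was -0.37 (95% interval -0.90 to 0.16; adjusted p by edgeR = 0.373). Without untreated replicate 2 it was -0.077, and with ribosomal RNA share or the excitatory neuron markers as covariate it turned to 0.51 and 0.20. Pdyn, which encodes prodynorphin, was 45.6, 180, 48.8, 107 and 95.1 CPM in untreated replicates 1 to 5 and 169, 96.8, 91.7, 112 and 81.8 CPM in RG2833 replicates 1 to 5. Untreated replicates 1 and 3 were the lowest for Pdyn, and untreated replicate 2 was again the highest. Its log2 fold change was 0.21 (95% interval -0.51 to 0.93; adjusted p by edgeR = 0.740). Single animals moved this value: it was 0.57 without untreated replicate 2, 0.00055 without RG2833 replicate 1, and 0.033 and 0.036 without untreated replicates 1 and 3. With ribosomal RNA share as covariate it was 1.00, with the excitatory neuron markers 0.37 and with the choroid plexus markers 0.07. The 2 opioid genes had a Pearson r of 0.64 over the 10 animals (log2 CPM) and 0.83 around the group means. This describes 2 genes measured in the same libraries, with no test. In untreated replicates 1 and 3, the summed dentate granule cell markers were also lowest, at 134 and 164 CPM against 322 to 466 CPM in the other 8 animals.

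Nts, the neurotensin precursor, had the widest spread, 88.5-fold between the highest and the lowest animal. It was 6.63, 6.49, 2.50, 43.9 and 0.529 CPM in untreated replicates 1 to 5 and 5.44, 46.8, 29.6, 36.9 and 9.21 CPM in RG2833 replicates 1 to 5. Untreated replicate 4 and RG2833 replicates 2, 3 and 4 formed a high set, and the other 6 animals were below 10 CPM. The same 4 animals had the highest summed CA1 pyramidal neuron markers, 1182 to 1527 CPM against 365 to 790 CPM in the others. Wfs1 (384 to 605 CPM against 63.9 to 182 CPM), Nov and Pou3f1 separated these animals, but Fibcd1 and Mpped1 did not. Fibcd1 was highest in untreated replicate 3 (365 CPM), and was 298 CPM in untreated replicate 5 against 214 CPM in RG2833 replicate 3. Mpped1 was 258 CPM in untreated replicate 3 and 228 CPM in RG2833 replicate 3. The log2 fold change was 1.07 ± 0.81 (SE), with an adjusted p of 0.438 by edgeR. Without untreated replicate 4 it was 2.68 ± 0.68 and passed (adjusted p by edgeR = 0.0232), and with ribosomal RNA share or the excitatory neuron markers as covariate it turned to -0.44 and -0.34. Over the 10 animals Nts and the summed CA1 markers had r = 0.65 (permutation p = 0.0421), which did not pass adjustment over all 140 relations of members with marker lists (adjusted p = 0.387). In bulk tissue, fewer cells of a type and less RNA per cell cannot be told apart.

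**Figure D3:**
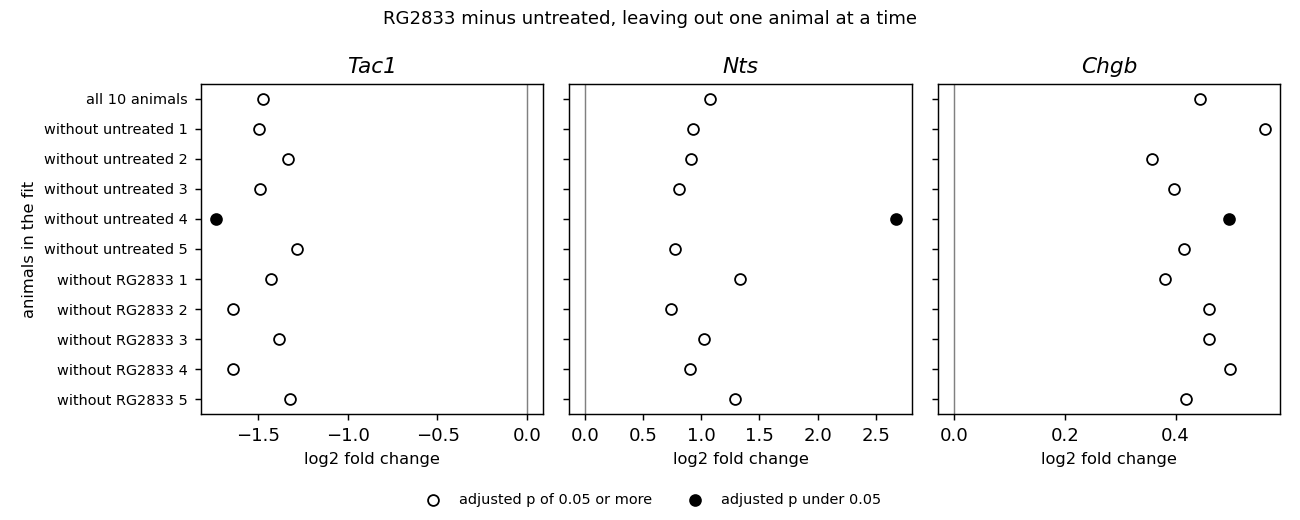
Log2 fold change (horizontal axes, RG2833 minus untreated, edgeR) of Tac1, Nts and Chgb with all 10 animals and with each animal left out in turn. Filled points have an adjusted p under 0.05, which for each of the 3 genes occurs only without untreated replicate 4.

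The remaining precursors were low. Adcyap1, the precursor of PACAP, was 9.84, 7.09, 12.05, 6.98 and 16.1 CPM in untreated replicates 1 to 5 and 6.58, 8.38, 10.2, 8.28 and 5.65 CPM in RG2833 replicates 1 to 5. Its highest 2 values were untreated and the ranges overlapped, with a log2 fold change of -0.41 (95% interval -0.93 to 0.11; adjusted p by edgeR = 0.311) and -0.20 without untreated replicate 5. It was -0.66 with ribosomal RNA share as covariate. Crh, which encodes corticotropin-releasing hormone, was 3.55, 2.30, 3.24, 2.79 and 2.43 CPM in untreated replicates 1 to 5 and 2.38, 4.28, 2.17, 5.07 and 3.03 CPM in RG2833 replicates 1 to 5. The RG2833 values spread around the untreated ones, with a log2 fold change of 0.25 (95% interval -0.30 to 0.80; adjusted p by edgeR = 0.583) and 0.053 without RG2833 replicate 4. Cartpt, the precursor of CART peptides, was 1.49, 1.20, 1.02, 0.279 and 0.952 CPM in untreated replicates 1 to 5 and 1.14, 0.803, 3.31, 0.310 and 1.15 CPM in RG2833 replicates 1 to 5. It rested on 3 to 32 counts, and replicate 4 of each group was at the floor of 3 counts. Its log2 fold change of 0.45 (95% interval -0.71 to 1.61; adjusted p by edgeR = 0.639) rested on RG2833 replicate 3, without which it was -0.19. It was -0.27 with ribosomal RNA share and 1.25 with the excitatory neuron markers as covariate.

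Untreated replicate 4 lay inside the RG2833 range for 9 of the 10 members (all but Cartpt), whereas the other untreated animals did so for 4 to 8 members. Over all tested genes it lay inside that range for 60.0%, against 37.0% to 48.8% for the other 4. Leaving it out gave 3 called members, Tac1 lower and Nts and Chgb higher, where 13.1% of all genes were called. Of the leave-one-out fits, which called 98 to 1556 genes, this one called the most. The animal was singled out from these same values. The calls without it, for the members and for the lists below, are therefore a description and add no support for a change.

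The tissue was checked against marker lists of the cells it could hold. Striatal projection neurons also make much Penk, Pdyn and Tac1. The 9 striatal markers in the table summed to 134 to 190 CPM in untreated and 185 to 212 CPM in RG2833 libraries, none was at 0 throughout, and 0 of 9 were called. Most of these sums was Ppp1r1b, at 87.6 to 132 CPM in untreated and 129 to 152 CPM in RG2833 libraries. Drd1 averaged 5.17 and 4.89 CPM and Drd2 2.34 and 2.07 CPM in the untreated and the RG2833 group. The median log2 fold change of the striatal list was -0.09. The 8 hypothalamic markers summed to 4.10 to 7.44 and 2.58 to 5.07 CPM, with Otp at 0 counts in every library. The 12 interneuron markers, 4 of which (Sst, Vip, Npy and Cck) are peptide genes, summed to 830 to 1314 and 815 to 1182 CPM, and 1 was called, Calb2 (lower). The CA2 and CA3 pyramidal neuron markers summed to 779 to 1545 and 1454 to 1803 CPM, with 0 of 7 tested genes called. Of the excitatory neuron markers 1 of 7 was called, Camk2a (higher, log2 fold change 0.67, adjusted p by edgeR = 0.0459), and of the microglial markers 1 of 6, Aif1 (lower, -0.74, adjusted p by edgeR = 0.0496). The 5 endothelial markers had a median log2 fold change of -0.35 with 0 called, and summed to 180.0 to 273 CPM in untreated and 161 to 180.5 CPM in RG2833 libraries. Over the 14 marker lists, Calb2, Camk2a and Aif1 were the only genes called, beside 5.08% of all genes.

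Each member's log2 level was set against the log2 summed level of each of the 14 marker lists over the 10 animals, which gave 140 correlations. The permutations shuffled all 10 animals without regard to group, so a difference between the groups can be part of each r and its p. After Benjamini-Hochberg adjustment 2 passed by Pearson's r and 0 by Spearman's rho, both of the 2 against the CA2 and CA3 markers. Tac1 had r = -0.82 (permutation p = 0.000130, adjusted p = 0.0182) and rho = -0.93 (permutation p = 0.000370, adjusted p = 0.0518). Chgb had r = 0.88 (permutation p = 0.000360, adjusted p = 0.0252) and rho = 0.81 (permutation p = 0.00737, adjusted p = 0.239). Without the 2 animals farthest from the median of the markers, untreated replicates 2 and 5, r was -0.83 for Tac1 and 0.77 for Chgb. Around the group means r was -0.70 and 0.80, with no test. Within the 5 untreated and the 5 RG2833 animals r was -0.70 and -0.74 for Tac1 and 0.82 and 0.79 for Chgb, given as a description with no test. Tac1 also had r = 0.80 with the interneuron markers (permutation p = 0.00738, adjusted p = 0.148; rho = 0.84, permutation p = 0.00383, adjusted p = 0.191). This relation did not pass, but around the group means its r of 0.86 was larger in size than that with the CA2 and CA3 markers, and without the 2 farthest animals, untreated replicate 4 and RG2833 replicate 5, it was 0.61. With the excitatory neuron markers Tac1 had r = -0.81 (permutation p = 0.00504, adjusted p = 0.148; rho = -0.70, permutation p = 0.0312, adjusted p = 0.407), and r was -0.60 without untreated replicates 2 and 5. Chgb and the endothelial markers had r = -0.81 (permutation p = 0.00468, adjusted p = 0.148; rho = -0.79, permutation p = 0.00910, adjusted p = 0.239), and r was -0.56 without untreated replicates 2 and 3.

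**Figure D4:**
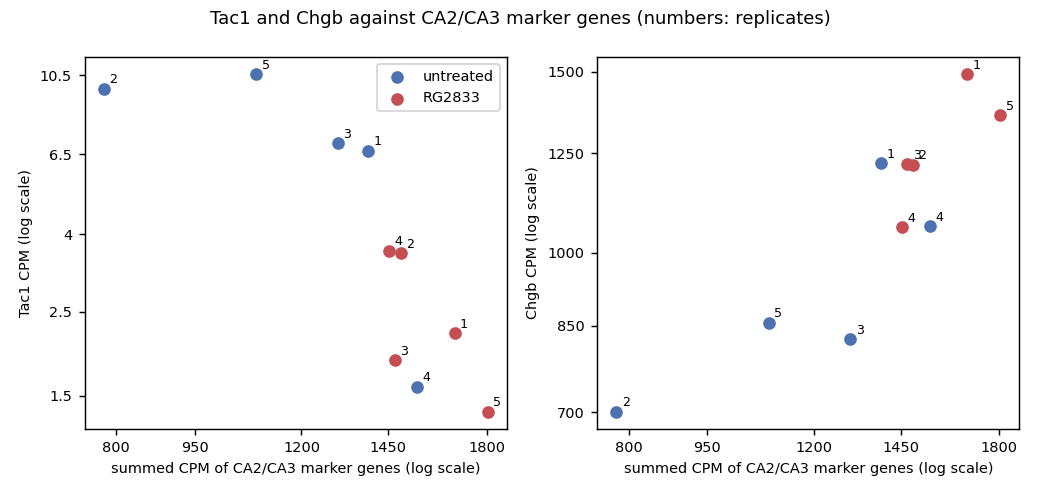
Level of Tac1 (left) and Chgb (right) in CPM against the summed CPM of the CA2 and CA3 marker genes, both axes on a log scale, 1 point per animal. Tac1 is high where these markers are low (r = -0.82) and Chgb is high where they are high (r = 0.88), and untreated replicate 4 lies with the RG2833 animals in the Tac1 plot.

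The genes whose log2 levels followed Tac1 most closely over the 10 animals were Rgs4 (r = 0.98), a regulator of G protein signalling, Mpp6 (0.97) and Maged2 (0.97). Mean levels of Rgs4 were 66.1 ± 26.0 CPM (untreated) and 29.1 ± 5.27 CPM (RG2833; SD, n = 5). Chgb was followed most closely by Thoc3 (0.96), Homer3 (0.95), a postsynaptic scaffold gene, and Cpne4 (0.95), which is also 1 of the CA2 and CA3 markers. These genes were picked over both groups together, so a difference between the groups is part of the likeness, and no test of it is given.

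Of 46 other peptide precursor and granin genes listed, 26 were tested, and 1 was called (lower), where 2.67% of all genes were called lower. At an unadjusted p under 0.05 there were 8 of 26 (6 of them lower), where 24.5% of all genes passed. Their median log2 fold change was -0.12. The called gene was Nppa, the precursor of atrial natriuretic peptide, at 13.7, 9.19, 31.4, 3.35 and 15.7 CPM in untreated replicates 1 to 5 and 5.25, 3.84, 3.41, 6.10 and 2.72 CPM in RG2833 replicates 1 to 5. Untreated replicate 4 again lay inside the RG2833 range. The log2 fold change was -1.78 ± 0.46 (SE) and an adjusted p of 0.0462 by edgeR, and when animals were left out in turn it passed only in the fit without untreated replicate 4. The log2 fold change of Nppa was -0.45 with ribosomal RNA share and -0.68 with the excitatory neuron markers as covariate, and its call was also lost with limma-voom (adjusted p = 0.140) and with the replicate block (adjusted p by edgeR = 0.119). The next 5 by p were Calca (calcitonin and CGRP precursor, -2.13), Cbln2 (a synaptic organizer, -0.92), Nxph4 (neurexophilin 4, -1.75), Pcsk1n (the granin-like proSAAS precursor, 0.28) and Grp (gastrin-releasing peptide precursor, -1.13), as log2 fold changes with adjusted p by edgeR from 0.0634 to 0.117. Without untreated replicate 4, 6 of 26 precursors were called, all lower: Nppa, Grp, Calca, Nxph4, Cbln2 and Agt. In that fit 13.1% of all genes were called, and 6.3% were called lower.

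Genes that cut peptides from precursors and release vesicles did not pass: 0 of 25 tested were called (edgeR, beside 5.08% of all genes). At an unadjusted p under 0.05 there were 4 (beside 24.5% of all genes), and DESeq2's Wald test called 2 (beside 11% of all genes), so neither share exceeded that of all genes. Their median log2 fold change was 0.04. Syt7, a calcium sensor of vesicle release, averaged 69.2 ± 29.1 and 124 ± 34.8 CPM (SD, n = 5), with a log2 fold change of 0.84 ± 0.26 (SE) and an adjusted p of 0.0758 by edgeR, and Syt9 2.87 ± 2.15 and 0.971 ± 0.220 CPM (-1.55 ± 0.48; adjusted p by edgeR = 0.0786). Bace1 (0.34), Rab3b (-0.52) and Pcsk6 (0.30) followed by p. Without untreated replicate 4, 3 of 25 were called, Syt7 higher (log2 fold change 1.11, adjusted p by edgeR = 0.00621) and Syt9 and Rab3b lower (-1.81 and -0.69, adjusted p by edgeR = 0.00967 and 0.0208), in the fit that called 13.1% of all genes. The enzymes that mature most neuropeptides, added here for their role, had log2 fold changes of -0.18 (convertase Pcsk1), 0.14 (convertase Pcsk2), -0.14 (carboxypeptidase Cpe) and -0.01 (amidating enzyme Pam), with adjusted p by edgeR from 0.446 to 0.931.

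Of 50 peptide receptor genes, 34 were tested and 1 was called (higher), where 2.41% of all genes were called higher. At an unadjusted p under 0.05 there were 9 of 34 (6 of them lower), again beside 24.5% of all genes. Their median log2 fold change was -0.11. Sstr2, a somatostatin receptor, rose from 12.1, 11.99, 10.4, 17.5 and 11.95 CPM in untreated replicates 1 to 5 to 17.4, 19.7, 26.05, 17.2 and 20.8 CPM in RG2833 replicates 1 to 5. Only untreated replicate 4 reached the RG2833 range. Its log2 fold change was 0.66 ± 0.16 (SE) and an adjusted p of 0.0357 by edgeR, and it passed in 2 of the 10 leave-one-out fits, those without untreated replicate 4 and without untreated replicate 5. With ribosomal RNA share as covariate it was 0.10 and with the excitatory neuron markers 0.25, and its call was lost with the replicate block (adjusted p by edgeR = 0.0897). The next 5 by p were Tacr3 (the neurokinin B receptor, -2.28), Crhr2 (-2.38), Sstr1 (-1.20), Npr2 (-0.36) and Gpr160 (0.71), as log2 fold changes with adjusted p by edgeR from 0.0758 to 0.130.

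Receptors of the members' own peptides did not pass with all 10 animals. Tacr1, the substance P receptor, averaged 11.8 ± 3.03 and 11.5 ± 1.14 CPM (SD, n = 5), with a log2 fold change of -0.04 (adjusted p by edgeR = 0.895). Tacr2, the neurokinin A receptor, averaged 2.14 ± 1.12 and 3.43 ± 1.72 CPM (SD, n = 5), with a log2 fold change of 0.68 (adjusted p by edgeR = 0.314). Adcyap1r1, the PACAP receptor, averaged 245 ± 50.1 and 214 ± 6.43 CPM (-0.19, adjusted p by edgeR = 0.333), and Vipr1 and Vipr2, which also bind PACAP, had log2 fold changes of 0.16 and 0.28. The Crh receptor Crhr1 had a log2 fold change of -0.88 (adjusted p by edgeR = 0.135) and the binding protein Crhbp -0.31. The neurotensin receptors Ntsr2 and Sort1 had log2 fold changes of -0.03 and 0.27, and C3ar1, bound by a Vgf peptide, 0.21. The opioid receptor genes Oprm1, Oprd1 and Oprk1 and the neurotensin receptor gene Ntsr1 did not pass the filter on low counts. Without untreated replicate 4, 7 of 36 receptor genes were called, Sstr2 higher and Sstr1, Tacr3, Crhr2, Trhr, Crhr1 and Ntsr1 lower, in the fit that called 13.1% of all genes (6.3% lower).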

How the data were processed

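Libraries of 10 rats were made with a stranded mRNA kit, per the labels' protocols. The authors deposited estimated counts (RSEM expected counts, unnormalized) and a normalized signal (TMM-scaled CPM). The submitters' processing notes name Bowtie2 2.1.0, RSEM 1.2.15, edgeR and rn6; the annotation is not given in the sources used here. The authors' counts were rounded. The filterByExpr function of edgeR kept 11791 genes, and RG2833 was compared with untreated in edgeR 4.0.16 (R 4.3.3; quasi-likelihood, TMM, no covariate), with Benjamini-Hochberg adjustment at 0.05 over all tested genes. SE is the log2 fold change over the square root of F. Levels are TMM-scaled CPM. Correlations used log2(CPM + 0.1) and 100000 two-sided permutations. Likeness between genes used log2 CPM with a prior count of 2.

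Alternatives were other scalings, filters, DESeq2 1.42.0, limma 3.58.1, covariates, a replicate block and leaving out each animal. Members and lists were chosen with earlier results of these data known. Named were all members, called list genes, the next 5 by p per list, receptors of members, and the 3 genes most like each of the 2 members with the smallest p; other genes named (Pcsk1, Pcsk2, Cpe, Pam, Calb2, Camk2a, Aif1 and those called only without untreated replicate 4) were chosen after their values were seen. Replicates differed beyond sampling noise, with a chi-square per degree of freedom of 16.3 to 36.3 over the 10 untreated pairs and 4.60 to 10.2 over the 10 RG2833 pairs. Each is labelled as a separate animal. The floor of 3 counts covers counting error only.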

Additional observations from a re-analysis of the deposited data

Results flagged for a closer look

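Among 104 groups of 5 values (members, named genes, marker sums, total count and ribosomal RNA share in both groups), 7 held an animal whose gap to the rest exceeded 0.71 of the group's range, where chance gives about 5.2 (1 in 20). Untreated replicate 4 had 43.9 CPM of Nts, and the other 4 untreated animals 0.529 to 6.63 CPM. Sstr2 in the same animal was 17.5 CPM against 10.4 to 12.1 CPM. RG2833 replicate 3 had 3.31 CPM of Cartpt, against 0.310 to 1.15 CPM. In that animal Crhr2 was 1.76 CPM against 0 to 0.310 CPM, and the summed thalamic and habenular markers were 44.0 CPM against 20.8 to 26.8 CPM. Most of this gap was Prkcd, at 28.4 CPM against 7.82 to 10.1 CPM in the other RG2833 animals. Tcf7l2 was 11.7 CPM against 8.20 to 11.4 CPM, and Lef1, at 3.93 CPM, was the lowest of the group. Untreated replicate 1 had a higher sum of these markers, 51.6 CPM. Untreated replicate 3 had 1290.3 CPM of Pcsk1n, against 984 to 1072 CPM. Choroid plexus markers summed to 2481 CPM in untreated replicate 1 against 5.56 to 24.2 CPM.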

How the results depend on the processing

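All alternatives were listed with earlier results known. The count of called genes, 599 in the main comparison, was 1295 with DESeq2's Wald test, 1466 at an adjusted p under 0.1, 241 with the choroid plexus markers, 3 with the excitatory neuron markers and 2 with the share of ribosomal RNA as covariates, and 98 to 1556 over the leave-one-out fits. Called members went from 0 to 2 with DESeq2 and at 0.1, and ran from 0 to 3 with one animal left out. Called precursors went from 1 to 5 with DESeq2 and at 0.1, to 0 with limma-voom, both limma trend fits and each covariate, and ran from 0 to 6. Called processing genes went from 0 to 2 with DESeq2 and at 0.1, and ran from 0 to 3. Called receptors went from 1 to 2 with DESeq2, to 4 at 0.1 and to 0 with each covariate, and ran from 0 to 7. Of 217 member values under the alternatives, 202 kept their direction and side of the threshold, 5 newly passed (Tac1 and Chgb with DESeq2, and Tac1, Nts and Chgb without untreated replicate 4) and 10 changed sign. With ribosomal RNA share the log2 fold change was 0.51 for Penk, -0.27 for Cartpt, -0.44 for Nts and 0.16 for Scg2, and with the excitatory neuron markers 0.20 for Penk, -0.34 for Nts and 0.011 for Scg2. Leaving out one animal gave -0.19 to 0.69 for Cartpt and -0.0026 to 0.095 for Vgf. The cause of these changes was not tested. A mean count of at least 50 gave no value for Tac1, Cartpt or Crh, and DESeq2 gave no adjusted p for Cartpt.

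Replicate numbers are shared by the groups but name different animals: the correlation of deviations of same-numbered animals was -0.32 to 0.15, and 1 of 10 animals matched its own number best. With the replicate block 180 genes were called, with 0 members, 0 precursors, 0 processing genes and 0 receptors.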

Other observations

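Peptide genes that mark interneuron classes, named after their values were seen, did not pass. Sst averaged 113 ± 35.5 and 90.3 ± 21.8 CPM (SD, n = 5) in the untreated and the RG2833 group, with a log2 fold change of -0.32 (adjusted p by edgeR = 0.401). Vip had a log2 fold change of -0.37 (adjusted p by edgeR = 0.347), Npy 0.13 (0.720) and Cck -0.09 (0.789). The granin genes Chga, Scg3 and Scg5 had log2 fold changes of 0.02, -0.05 and 0.08, with adjusted p by edgeR from 0.607 to 0.895. The granin-like Pcsk1n, at 0.28 (95% interval 0.08 to 0.48, adjusted p by edgeR = 0.0953), had the direction of Chgb.

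Among the 138 member and marker relations that did not pass by Pearson's r, Pdyn against the dentate granule cell markers had r = 0.82 (permutation p = 0.00635, adjusted p = 0.148) and rho = 0.49 (permutation p = 0.152, adjusted p = 0.658). Without the 2 animals farthest from the median, untreated replicates 1 and 3, r was 0.27, so the relation rests on those animals. Nts against the CA1 markers had r = 0.65 (permutation p = 0.0421, adjusted p = 0.387) and rho = 0.67 (permutation p = 0.0391, adjusted p = 0.407), and r was 0.64 without its 2 farthest animals. Fibcd1 and Mpped1 of this list did not separate the animals high in Nts from the others. Adcyap1 against the interneuron markers had r = 0.80 (permutation p = 0.00579, adjusted p = 0.148), rho = 0.84 (permutation p = 0.00409, adjusted p = 0.191), and r = 0.73 without the 2 farthest animals.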
